A study of Arabidopsis thaliana with 4 samples.

Results

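RD22, DREB19, ABF3, ATHB7 and ATHB12 are 5 Arabidopsis thaliana genes of the response to dehydration and to abscisic acid, the hormone that plants make under water deficit and salt. They were chosen by gene identifier, and all 5 were found among the 11508 genes that the authors listed as different between at least 1 pair of libraries. The study measured poly-A RNA of calli, masses of dividing cells in culture, raised from root pieces of wild type Col-0 plants aged 30 days on medium with 0.5 mg/L of the synthetic auxin 2,4-D. The 4 groups, named by their medium, were MS (Murashige and Skoog medium, untreated), MS+2,4-D with 0.5 mg/L of 2,4-D, MS+NaCl with 100 mM of salt, and MS+NaCl+2,4-D with both. The calli on salt were kept there for 4 weeks. A subculture time of 3 weeks is given for all 4 groups. All groups had thus met 2,4-D during callus growth, also those without it in the label. Each group had 1 sample of pooled RNA, so no difference below has a replicate check. The 4 libraries were named 1A, 2A, 3A and 4A, and no label ties a code to a medium, so no difference below can be given to salt or to 2,4-D.

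Abscisic acid is known to bind receptors of the PYR/PYL family, which then block clade A PP2C phosphatases and so free SnRK2 kinases. The kinases activate bZIP factors such as ABF3, which bind the abscisic acid response element (ABRE) of target promoters. A separate branch acts through DREB factors, which bind the dehydration response element (DRE). RD22 is a target gene that encodes a BURP domain protein of the cell wall, and the factors MYC2 and MYB2 are known to activate it. DREB19, also named DREB2E, belongs to the DREB2 factors. ATHB7 and ATHB12 are paralogous homeodomain-leucine zipper factors of class I, induced by abscisic acid in seedlings.

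The values used are log2 fold changes between pairs of libraries, as deposited by the authors. Each of the 6 tables holds only genes that differ by 2-fold or more (log2 of 1) at an FDR below 0.001, so a gene that is not listed missed at least 1 of these limits. Listed genes numbered 3420 to 7531 per table. Where listed pairs linked all 4 libraries, the level of a gene in each library was placed on 1 scale by adding the listed log2 fold changes, which is called chained below. This was possible for 6653 genes, the 5 members among them, and listed values of these genes met the chained ones within 1e-09. The 6 comparisons share their libraries and hold 3 independent contrasts. The per-library values were not used and depth was not determined, so levels cannot be compared between genes, and markers of root callus were not analysed here. In RNA of whole calli, fewer cells of a type and less RNA per cell cannot be told apart.

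In TAIR10.1, the reference used here for positions, RD22 (gene ID 832636, AT5G25610) lies at chr5:8914122-8916856 on the minus strand with 4 exons. DREB19 (818414, AT2G38340) lies at chr2:16067396-16068615 on the minus strand with 2 exons. ABF3 (829547, AT4G34000) lies at chr4:16295334-16298285 on the plus strand, with 5 exons in its longest transcript. ATHB7 (819280, AT2G46680) lies at chr2:19165274-19166967 and ATHB12 (825362, AT3G61890) at chr3:22914154-22915393, both on the minus strand with 2 exons. The coding sequences of ATHB7 and ATHB12 were identical at 79.6% of 687 aligned bases, and their longest identical run was 21 bases. No run of 50 bases in the transcripts of RD22, ABF3, ATHB7 or ATHB12 occurred in a transcript of another gene, on either strand. For DREB19, 14.4% of such runs also occurred, on the opposite strand, in AT2G08960, a long non-coding RNA gene. DREB19 overlaps AT2G08960 by 205 bases, AT2G38350 by 275 and AT2G38330 by 42, all on the opposite strand and ABF3 overlaps AT4G34020 by 24 bases, also on the opposite strand. None of these 4 genes was listed in any table. No source used here says whether counting used strand. Reads of DREB19 and ABF3 and of these genes therefore cannot be told apart where their exons overlap. AT2G38350 shared no run of 50 bases with the transcript of DREB19.

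The 250 bases before the annotated start of RD22, DREB19 and ABF3 are shown because they hold matches to motifs of the pathway, given in capitals, read 5′ to 3′ on the strand of the gene. CACGT is the ABRE core ACGTG on the other strand, and CACATG is a site of the kind that MYC factors bind. The windows are chr5:8916857-8917106, chr2:16068616-16068865 and chr4:16295084-16295333 in TAIR10.1.
RD22: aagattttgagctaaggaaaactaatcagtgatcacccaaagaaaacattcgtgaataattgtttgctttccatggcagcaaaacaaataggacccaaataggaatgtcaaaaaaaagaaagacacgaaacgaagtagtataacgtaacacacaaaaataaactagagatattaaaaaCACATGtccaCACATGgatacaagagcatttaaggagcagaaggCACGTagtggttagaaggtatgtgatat
DREB19: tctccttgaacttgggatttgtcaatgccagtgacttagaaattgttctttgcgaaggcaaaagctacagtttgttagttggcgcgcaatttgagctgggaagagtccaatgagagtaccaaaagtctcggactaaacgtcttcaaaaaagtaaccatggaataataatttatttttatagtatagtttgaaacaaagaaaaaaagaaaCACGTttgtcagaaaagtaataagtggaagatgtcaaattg
ABF3: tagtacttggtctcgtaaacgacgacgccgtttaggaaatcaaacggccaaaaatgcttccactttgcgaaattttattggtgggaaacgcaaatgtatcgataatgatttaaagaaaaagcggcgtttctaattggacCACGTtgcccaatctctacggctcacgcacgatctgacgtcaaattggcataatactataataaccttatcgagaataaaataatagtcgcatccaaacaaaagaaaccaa
RD22 held the ABRE core from base -28 to -24 and CACATG from -72 to -67 and again from -62 to -57, counted from the gene start. DREB19 held the ABRE core from -41 to -37 and ABF3 from -111 to -107.

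The same window of ATHB7, chr2:19166968-19167217, and of ATHB12, chr3:22915394-22915643, is shown because the paralogs share a run there, given in capitals.
ATHB7: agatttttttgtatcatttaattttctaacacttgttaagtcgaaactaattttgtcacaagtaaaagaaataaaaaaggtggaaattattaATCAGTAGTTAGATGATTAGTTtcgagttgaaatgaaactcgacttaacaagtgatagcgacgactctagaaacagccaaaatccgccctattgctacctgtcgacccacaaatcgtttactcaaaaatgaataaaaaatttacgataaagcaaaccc
ATHB12: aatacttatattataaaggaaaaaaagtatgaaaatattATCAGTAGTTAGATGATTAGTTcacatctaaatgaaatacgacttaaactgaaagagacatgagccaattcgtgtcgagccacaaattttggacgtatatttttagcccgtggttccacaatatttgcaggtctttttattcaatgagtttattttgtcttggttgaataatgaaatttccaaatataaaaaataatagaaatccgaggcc
The shared run of 22 bases lay from -158 to -137 in ATHB7 and from -211 to -190 in ATHB12. Among 27443 protein-coding genes, only 2 held it in this window on either strand, and these were ATHB7 and ATHB12 themselves. It was searched for after the sequences had been seen. The other 9 pairs of members shared runs of 8 to 11 bases.

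Motifs were searched on both strands from 250 bases before to 50 after the start of the same 27443 genes. The ABRE core ACGTG was in 3 of the 5 members and in 26.7% of all genes, and CACATG was in RD22 and in 12.9% of all genes. The DRE core CCGAC (15.0% of all genes), the MYB site TAACTG (9.34%) and the homeodomain-leucine zipper site CAATNATTG (1.07%) had no match in the members. Only these forms were searched, so other forms of a site, such as other MYB sites in the RD22 window, may be present. A match is a description of the letters only.

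**Figure D1:**
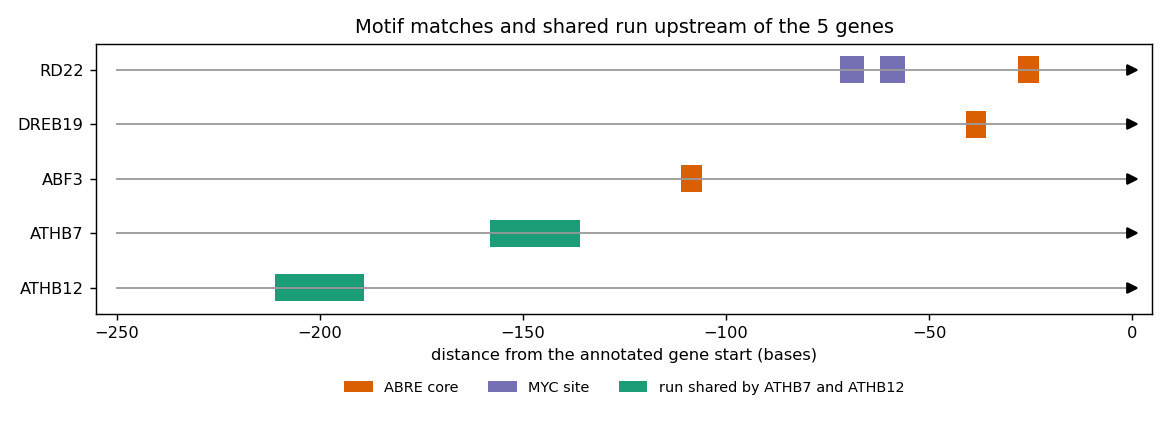
The 250 bases before the annotated start of the 5 genes (x axis, distance in bases; arrowheads mark the start), with ABRE cores, MYC sites and the run shared by ATHB7 and ATHB12. RD22 holds 2 MYC sites and 1 ABRE core, and the shared run of 22 bases sits farther from the start in ATHB12 than in ATHB7.

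By the width of their ranges alone, the 5 genes fell into a pair with very wide ranges and a trio with narrow ones. RD22 and DREB19 stood highest in 4A and next in 2A, with ranges over the 4 libraries of 8.65 and 10.52 on the log2 scale. ABF3, ATHB7 and ATHB12 stood lowest in 2A, with ranges of 1.97, 1.18 and 2.56. Between 2A and 1A all 5 members were listed, 2 higher and 3 lower in 2A, where 53.3% of the 11508 genes were listed, 28.8% as higher and 24.5% as lower. Between 3A and 2A all 5 were listed as well, 3 higher and 2 lower in 3A, where 47.6% of the genes were listed, 27.8% as higher and 19.7% as lower.

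The other comparisons listed fewer members. Only RD22 was listed between 3A and 1A, as higher, where 32.4% of the genes were listed, 21.3% as higher. Between 4A and 1A, 2 members were higher and 1 was lower, where 65.4% of the genes were listed, 32.5% as higher and 32.9% as lower. Between 4A and 2A, 2 members were higher and 0 lower, where 29.7% of the genes were listed and 8.48% as higher. Between 4A and 3A, 2 were higher and 1 lower, where 55.2% of the genes were listed, 19.6% as higher and 35.6% as lower. In all, 19 of 30 combinations of member and comparison were listed, and the largest FDR among them was 4.25e-25 in the authors' deposited table. Such FDRs set 2 libraries against each other and carry no spread between calli.

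**Figure D2:**
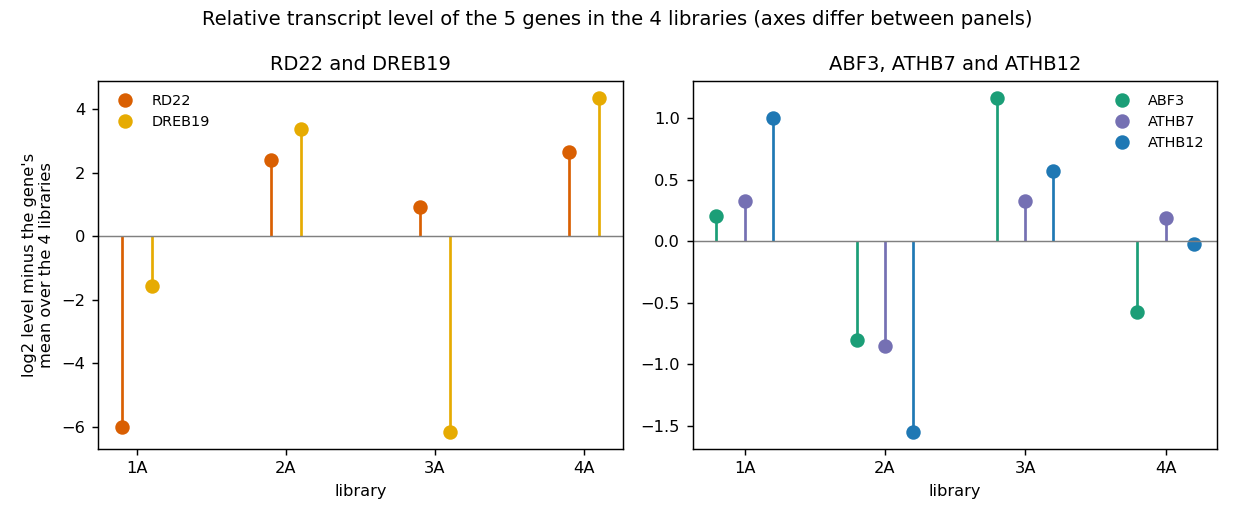
Chained log2 level of each member in each library, minus the member's mean over the 4 libraries (points; 1 library per group, no error bars; the y axes differ). RD22 is lowest in 1A and DREB19 in 3A, whereas ABF3, ATHB7 and ATHB12 are lowest in 2A.

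RD22, the BURP domain gene, was far lower in 1A than in the other 3 libraries. Relative to 1A, its log2 level was 8.41 in 2A, 6.91 in 3A and 8.65 in 4A in the authors' deposited tables, with FDRs of 2.53e-101, 1.25e-34 and 2.66e-120. The lone low library was therefore 1A, and 3A lay between it and the other libraries. 3A was lower than 2A by a listed log2 fold change of -1.50 (FDR 4.25e-25), and 4A was higher than 3A by 1.74 (FDR 2.42e-36), in the authors' deposited tables. The difference of 4A from 2A was not listed and came to 0.24 when chained, so these neighbours in the order 1A, 3A, 2A, 4A were not called different. In size the RD22 fold changes over 1A ranked 90 of 3318 higher genes in 2A, 86 of 2449 in 3A and 64 of 3741 in 4A.

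The size of the RD22 difference from 1A depends on how low 1A was, which was not determined. Its folds over 1A were 339.7, 120.3 and 401.3, each a multiple of 1/3 within a relative tolerance of 1e-09. In the table of 2A over 1A, 15.1% of listed folds became whole at a multiplier of at most 3. If the authors' values had been rounded to a fixed step and 1A lay at 3 steps, a shift of the 1A value by the rounding alone would move the log2 fold changes by up to 0.26. The log2 level in 2A would then lie between 8.19 and 8.67, in 3A between 6.69 and 7.17, and in 4A between 8.43 and 8.91.

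DREB19, the DREB2 factor, was high in 2A and 4A and low in 1A and 3A. Relative to 1A its chained log2 level was 4.96 in 2A, -4.58 in 3A and 5.94 in 4A. The values for 2A and 4A were listed in the authors' deposited tables with FDRs of 4.78e-41 and 2.64e-87. Against 3A, the listed log2 fold changes were -9.54 for 3A over 2A (FDR 1.93e-48) and 10.52 for 4A over 3A (FDR 4.53e-96) in the authors' deposited tables. They ranked 10 of 2272 lower genes and 4 of 2260 higher genes in size. Both folds over 3A were whole numbers, as were 6.98% of those in the first of these tables and 11.53% in the second, so their size depends on how low 3A was, which was not determined. If 3A lay at 1 rounding step, the rounding alone would put the log2 fold change of 3A over 2A between -10.54 and -8.96 and that of 4A over 3A between 9.94 and 11.52. The chained value of 3A over 1A would lie between -5.58 and -4.0. These bounds hold only if the value in 3A was a rounded one. If it was a floor set in place of a lower value, the size of these differences would have no upper limit.

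For DREB19 the order was 3A, 1A, 2A, 4A, and 2 pairs of neighbours were not called different. The difference of 3A from 1A was not listed although its chained size was -4.58. Of 3555 linked genes that were not listed between these libraries, 426 (11.98%) had a chained difference of at least 2-fold. The difference of 4A from 2A came to 0.98 when chained, just under the limit of 1, and was not listed either.

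ABF3, the bZIP factor that acts on ABRE promoters, was highest in 3A. Relative to 1A its chained log2 level was -1.003 in 2A, 0.97 in 3A and -0.78 in 4A, and only the value for 2A was listed (FDR 6.30e-52 in the authors' deposited table). With a fold of 2.004 it lay just inside the authors' limit of 2. Only 12 of the 2821 genes lower in 2A had a smaller fold change. The listed differences between the other libraries were larger, with 3A over 2A at 1.97 (FDR 2.22e-285) and 4A over 3A at -1.74 (FDR 1.94e-231) in the authors' deposited tables. 4A and 2A differed by 0.23 when chained, so in the order 2A, 4A, 1A, 3A no pair of neighbours was listed.

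ATHB7 was lower in 2A than in the other 3 libraries, which lay close together. Relative to 1A its chained log2 level was -1.18 in 2A, -0.0039 in 3A and -0.14 in 4A. The listed log2 fold changes were -1.18 for 2A over 1A (FDR 1.18e-118), 1.18 for 3A over 2A (FDR 1.16e-130) and 1.05 for 4A over 2A (FDR 9.32e-93) in the authors' deposited tables. No difference among 1A, 3A and 4A was listed for ATHB7.

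ATHB12, like its paralog, was lowest in 2A, over a range that was wider on the log2 scale, and its order was 2A, 4A, 3A, 1A. Relative to 1A its chained log2 level was -2.56 in 2A, -0.43 in 3A and -1.03 in 4A. The difference of 2A from 1A was listed with an FDR of 0, and that of 4A from 1A with 9.16e-104, in the authors' deposited tables. 3A over 2A stood at 2.12 (FDR 7.85e-226) and 4A over 2A at 1.53 (FDR 4.18e-95) in the authors' deposited tables. The differences of 3A from 1A and of 4A from 3A, at -0.60 when chained, were not listed.

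**Figure D3:**
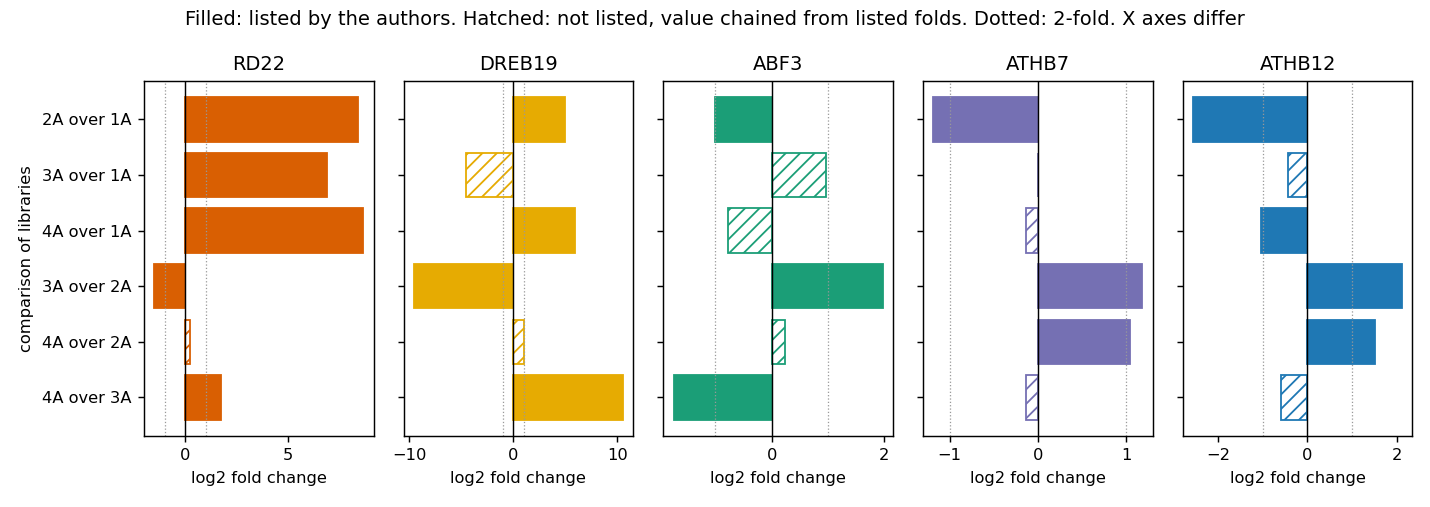
Log2 fold change of the first-named library over the second, for each member and comparison (filled bars, listed by the authors; hatched bars, not listed and chained; dotted lines, 2-fold; x axes differ). The 3A over 1A bar of DREB19 is the only hatched bar beyond the dotted lines.

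Pairs of comparisons that share no library gave the following values side by side. RD22 stood at 8.41 for 2A over 1A and at 1.74 for 4A over 3A, both listed. DREB19 stood at 4.96 and 10.52 in these comparisons, both listed, and ABF3 at -1.003 and -1.74, both listed. ATHB12 stood at -2.56, listed, and -0.60, not listed, and ATHB7 at -1.18, listed, and -0.13, not listed. All 5 members thus had the same sign in both comparisons. The share of all linked genes with the same sign was not determined, so the count cannot be read as a trait of the members.

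For 3A over 1A against 4A over 2A, the signs were the same for RD22, at 6.91 (listed) and 0.24, and for ABF3, at 0.97 and 0.23. They were opposite for ATHB12, at -0.43 and 1.53 (listed), for DREB19, at -4.58 and 0.98, and for ATHB7, at -0.0039 and 1.05 (listed). For 4A over 1A against 3A over 2A the signs were opposite in all 5 members. This count uses the same libraries as the counts above, is not independent of them, and has no share over all linked genes beside it. RD22 stood at 8.65 and -1.50, DREB19 at 5.94 and -9.54 and ATHB12 at -1.03 and 2.12, all listed. ABF3 stood at -0.78 and 1.97 and ATHB7 at -0.14 and 1.18, of which the second values were listed. With 1 library per group, none of these differences was tested.

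**Figure D4:**
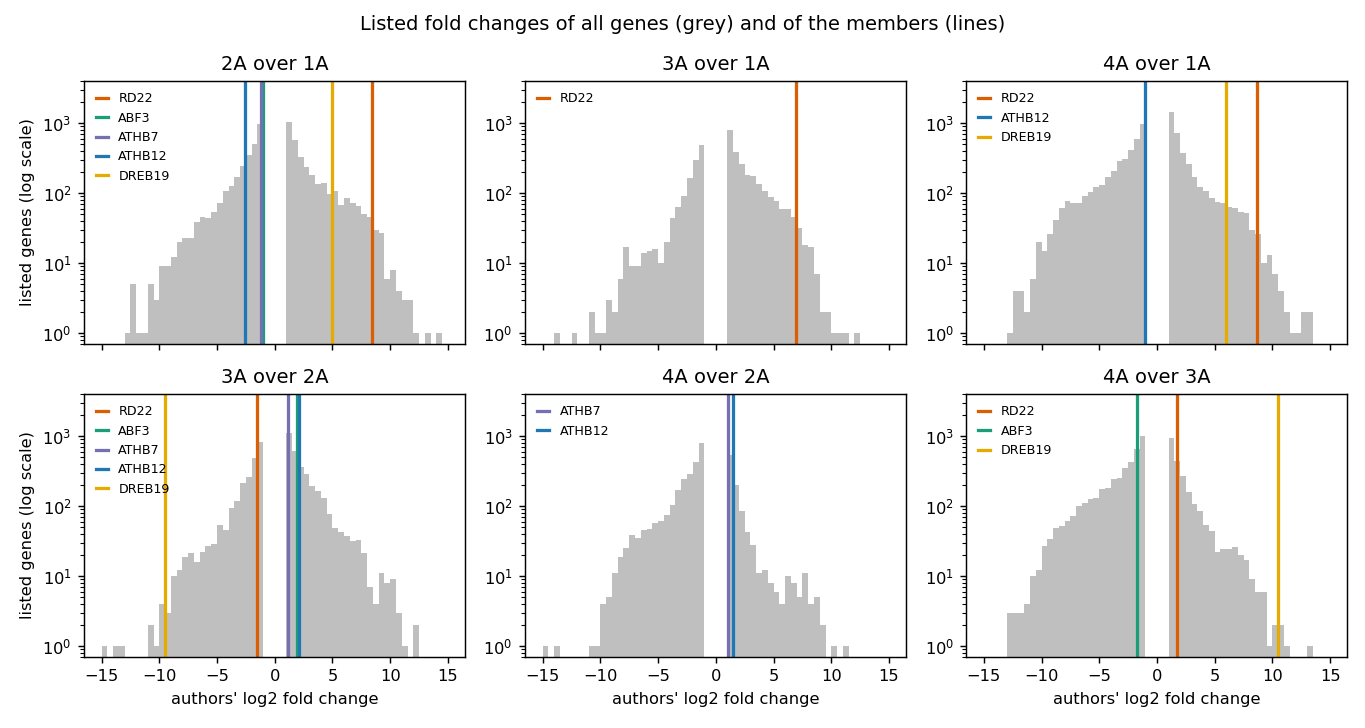
Authors' log2 fold changes of all listed genes (grey, counts on a log scale, bins of 0.5) with the listed members as lines, 1 panel per comparison. RD22 and DREB19 lie in the tails of several panels, and the lines of ABF3, ATHB7 and ATHB12 lie between -2.56 and 2.12.

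The genes with the most similar pattern over the 4 libraries were sought by the Euclidean distance between centred log2 levels, among the 6653 linked genes. Only genes with a symbol are named, so genes without a symbol may lie nearer. Nearest to RD22 were ADS1, a desaturase gene, at a distance of 0.28, SRS4 at 0.48 and the homeodomain gene HAT1 at 0.77. Nearest to ABF3 were ATB2 (0.24), CSK, a chloroplast sensor kinase gene (0.25), and EMB506 (0.26). Nearest to ATHB7 were SGF29a (0.16), QPT (0.20) and STP12 (0.22), and nearest to ATHB12 were GSTL1 (0.28), BR6OX2, a brassinosteroid oxidase gene (0.34), and ANK1 (0.38). DREB19 had no neighbour with a symbol as close as those above. PIRL8 at 2.402, WRKY54 at 2.46 and NCED5, of abscisic acid synthesis, at 2.797 came first. ATHB7 and ATHB12 lay 1.02 apart, with 268 genes nearer to ATHB7 and 227 nearer to ATHB12, each count including the gene itself. ABF3 lay 1.15 from ATHB7, with 700 genes nearer to ABF3 and 393 nearer to ATHB7, counted in the same way. RD22 and DREB19 lay 8.57 apart, farther than RD22 lay from ATHB7 (7.56), ABF3 (7.69) or ATHB12 (8.49).

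The rest of the pathway was described with 11 lists of 118 genes, of which 33 were listed in no table. Counts below are genes that the authors listed, and medians are over the listed genes of a list. List sizes include genes that were never listed, whereas the shares given above are of genes listed at least once, so counts and shares do not have the same base. The shares not yet given are 11.1% lower in 3A over 1A and 21.2% lower in 4A over 2A. Some folds named below became whole at a small multiplier, as for RD22. Their size depends on how low the lower library was, which was not determined. Examples are HAI2 and HAI3 in 3A over 1A (multipliers 3 and 5), CBF3, ATHB52 and ATHB54 in 2A over 1A (4, 5 and 5) and USPL1 in 4A over 1A (2).

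Every listed difference of a receptor gene in 3A or 4A from 2A was a lower level. Of 14 receptor genes, 7 were lower in 4A than in 2A and 0 higher, with a median log2 fold change of -1.38 beside -2.01 over all lower genes of that table. In 3A, 6 were lower than in 2A and 0 higher, with a median of -1.72 beside -1.80 over all lower genes. Over 2A, PYL6 stood at -5.54 in 3A and -2.76 in 4A, PYL5 at -2.10 and -2.11, and PYL2 at -1.99 and -2.72, in the authors' deposited tables. In 2A over 1A, 3 receptor genes were higher and 0 lower, led by PYL2 at 3.69 in the authors' deposited table. In 4A over 1A, 0 receptor genes were higher and 3 lower, and in 3A over 1A, 1 was higher and 3 lower. In 4A over 3A, 1 was higher and 1 lower. As background, ATHB7 and ATHB12 are known in Arabidopsis to act negatively on PYL receptor genes and positively on PP2C genes. That relation was not tested.

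Of 9 clade A phosphatase genes, 5 were higher in 3A than in 1A and 0 lower, with a median of 2.16 beside 2.06 over all higher genes of that table. In 3A over 2A, 4 were higher and 0 lower, of which 1 was left at an FDR under 1e-10. In 4A over 1A, 3 were higher and 0 lower, HAI2 at 4.50, ABI2 at 1.72 and ABI1 at 1.14 in the authors' deposited table. HAI2 stood at 5.50, HAI3 at 3.89 and HAI1 at 2.16 in 3A over 1A in the authors' deposited table. In 4A over 3A, 4 were lower and 0 higher, with HAI3 at -3.40 and HAI1 at -1.84 in the authors' deposited table. No phosphatase gene was listed between 2A and 1A. The SnRK2 kinases were mixed, with 3 of 10 higher and 1 lower in 2A over 1A. SNRK2.9 stood at 2.83 and SNRK2.5 at 2.09, and SNRK2.4 at -1.12, in the authors' deposited table. SNRK2.6 was listed only in 3A over 2A, at 1.05 in the authors' deposited table, and SNRK2.2 and SNRK2.3 were listed in no table.

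Among the 9 bZIP factors, ABF3 shared its maximum in 3A with ABF2, which stood at 1.53 in 3A over 1A, 1.19 in 3A over 2A and -1.19 in 4A over 3A in the authors' deposited tables. ABI5, which acts in seeds and seedlings, had other values, at 3.98 in 2A and 3.74 in 4A over 1A and -2.68 in 3A over 2A in the authors' deposited tables. ABF1 was lower in 4A, at -1.84 over 3A in the authors' deposited table, and ABF4 was not listed.

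Among the 17 class I homeodomain-leucine zipper genes, 3 were higher in 4A than in 2A and 0 lower, with a median of 1.53 beside 1.45 over all higher genes of that table. They were ATHB7, ATHB12 and ATHB21, the last at 2.08 in the authors' deposited table. In 2A over 1A, 4 were lower, ATHB7, ATHB12, ATHB13 at -1.75 and ATHB54 at -3.83, and 6 were higher, among them ATHB52 at 4.89 and ATHB53 at 4.85, in the authors' deposited table. ATHB13 was also like the paralogs in 3A over 2A, at 2.43, but lower in 4A than in 3A, at -2.72, in the authors' deposited tables.

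Of the 14 DREB1 and DREB2 genes, 8 were higher in 2A than in 1A and 0 lower, with a median of 2.75 beside 2.04 over all higher genes of that table. DREB19 had the largest of these values at 4.96, followed by CBF3 at 4.27 and DREB2D at 3.87, in the authors' deposited table. DREB2D also had the direction of DREB19 in the other comparisons that listed both, with 3.49 in 4A over 1A, -4.53 in 3A over 2A and 4.14 in 4A over 3A in the authors' deposited tables. DREB2A, a factor of heat and drought responses, stood at 1.07 in 3A and 2.02 in 4A over 1A in the authors' deposited tables and was not listed in 2A over 1A. In 4A over 2A, 5 of the list were lower and 2 higher, the lower ones all of the DREB1 group, such as DDF1 at -4.01 and CBF2 at -3.57, and the higher ones DREB2A at 2.03 and DREB2B at 1.02, in the authors' deposited table. The folds of the other 3 lower genes, CBF1, CBF3 and DDF2, were whole numbers, and without such folds 2 were lower and 2 higher.

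RD22 and the other BURP domain genes differed in direction in 4A. In 4A over 1A and again in 4A over 3A, RD22 was higher and the other 4 genes were lower. USPL1 stood at -6.85 over 1A and -7.49 over 3A, AT1G60390 at -3.90 and -4.99, and AT1G70370 at -1.51 and -1.21, in the authors' deposited tables. AT1G23760 was lower with whole-number folds. Of the regulators known to activate RD22, MYB2 was highest in 1A, and MYC2 was listed as higher in 2A and 3A than in 4A. Whether they act on RD22 in these calli was not tested. MYB2 stood at -1.76 in 2A, -1.39 in 3A and -1.42 in 4A over 1A, and MYC2 at -1.12 in 4A over 2A and -1.29 in 4A over 3A, in the authors' deposited tables.

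Of the 25 dehydration and abscisic acid target genes, 10 were listed as higher in 3A than in 2A and 3 as lower, with a median of 2.28 beside 1.17 over all genes of that table. The other 12 were not listed there. COR15A, a chloroplast protein gene of cold acclimation, stood at 6.16, KIN1 at 2.58, RD29A at 2.28 and P5CS1, of proline synthesis, at 2.26 in the authors' deposited table. The folds of LEA4-5, RD20 and RD29B, also higher, were whole numbers. RD22 was among the 3 lower ones, with the factors ANAC019 at -1.64 and ANAC055 at -3.65, in the authors' deposited table. In 4A over 3A, 10 target genes were lower and 4 higher, with a median of -2.17 beside -1.43. The higher ones were RD22, ANAC055 at 3.24, ANAC019 at 1.59 and RD26 at 1.25, and the lower ones included COR47 at -3.32 and RD29A at -4.52, by the authors' deposited table. In both comparisons, which share 3A, ABF3 had the direction of the larger number of listed targets. That was also the direction of most listed genes, of which 58.51% were higher in 3A over 2A and 35.56% in 4A over 3A. RD22, itself on the target list, and DREB19 had the other direction. Whether ABF3 acts on these targets was not tested. In 3A over 1A, 9 targets were higher and 1 lower, and in 2A over 1A, 3 were higher and 7 lower. In 4A over 1A, 5 were higher and 8 lower, and in 4A over 2A, 1 was higher and 2 lower.

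Genes of abscisic acid synthesis were listed as higher in 3A over 1A for 3 of 10 and as lower for 0. NCED3, the main drought-induced cleavage enzyme, stood at 1.65 in 3A over 1A, 1.72 in 3A over 2A and -1.77 in 4A over 3A in the authors' deposited tables. NCED5 stood at 4.31 in 2A and 2.61 in 4A over 1A in the authors' deposited tables and was lower in 3A than in 2A with a whole-number fold, the directions seen for DREB19. Unlike DREB19 it was listed as lower in 4A than in 2A, at -1.70 by the authors' deposited table. Among 4 hydroxylase genes, whose enzymes inactivate abscisic acid, 3 were lower in 4A than in 3A and 0 higher. CYP707A4 stood at -2.93, CYP707A3 at -1.83 and CYP707A1 at -1.34 in the authors' deposited table.

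**Figure D5:**
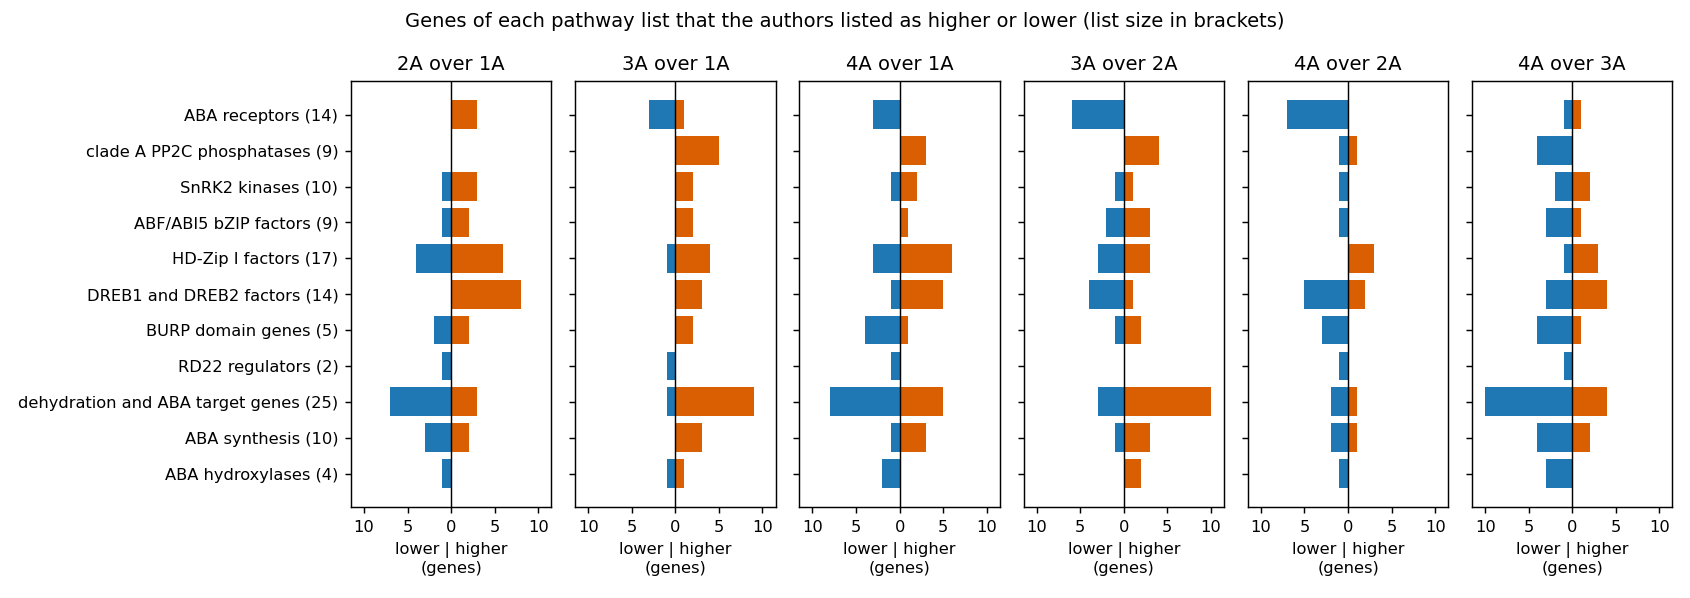
Number of genes of each pathway list that the authors listed as higher (right of 0) or lower (left of 0) in the first-named library, 1 panel per comparison, with list sizes in brackets. Of 14 receptor genes, 6 are lower in 3A and 7 in 4A than in 2A, and of 25 target genes 10 are higher in 3A over 2A and 10 lower in 4A over 3A.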

How the data were processed

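Per the labels' protocols, RNA was pooled within each group, selected for poly-A and read on a BGISEQ-500 instrument. The labels speak of biological replicates too. Bowtie, Bowtie2 2.2.5, HISAT, Cufflinks, StringTie 1.0.4 and the genome build TAIR10 appear in the submitters' processing notes without their roles. The log2 fold changes, p-values and FDRs were deposited by the authors, per the file headers, in 6 workbooks. No source used here names the test behind them. A further 36 columns of per-library values could not be tied to a sample and were not used. The length column was used only to check the annotation against TAIR10.1: it equalled a transcript length for 67.5% of 11380 genes, and for RD22, ATHB12 and DREB19 but not ABF3 and ATHB7.

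Fold changes were chained across libraries, a step tested on simulated levels. Genes were matched to RefSeq TAIR10.1, where all 118 list genes were found. The number of genes the authors tested is not given, so shares are of the 11508 genes listed at least once. Sequences were read from the TAIR10.1 genome. The members, lists and motifs were chosen with earlier results of these data known. Named were the members, their 3 nearest genes with a symbol, and up to 3 further genes of each list and comparison with the largest fold changes, of which a part is printed. Other genes named were chosen after their values were seen. The planned protein comparison of ATHB7 and ATHB12 was replaced by one of coding bases. No statistical test was run, since each group had 1 sample. The alternatives tried were a 4-fold limit, an FDR limit of 1e-10, folds without whole numbers, values through another library, the other sheets, another background, a shorter promoter window and, chosen after seeing the data, rounding shifts for RD22 and DREB19. Python 3.11.15, pandas 2.3.3, NumPy 2.4.6, Biopython 1.88 and Matplotlib 3.10.9 were used.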

Additional observations from a re-analysis of the deposited data

How the results depend on the processing

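No paired analysis was possible because each group had 1 sample and no library could be tied to a group. Depth is unknown. Of the 19 listed member values, all had an FDR under 1e-10. Values could be formed through another library for 8 and were the same, as they must be when all folds come from the same library values. 2 other sheets each held 7 of them with the same values and lacked 12. At a 4-fold limit 10 were no longer called: RD22 at -1.50 (3A over 2A) and 1.74 (4A over 3A), ABF3 at -1.003, 1.97 and -1.74, ATHB7 at -1.18, 1.18 and 1.05, and ATHB12 at -1.03 (4A over 1A) and 1.53 (4A over 2A). The members called then numbered 3 in 2A over 1A, 2 in 3A over 2A, 0 in 4A over 2A and 1 in 4A over 3A. Without whole-number folds, DREB19 lost its values of -9.54 and 10.52 against 3A.

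Pathway gene counts at a 4-fold limit fell to 8 lower in 2A over 1A, 15 higher and 3 lower in 3A over 1A, 12 lower in 4A over 1A, 15 higher and 9 lower in 3A over 2A, 2 higher and 13 lower in 4A over 2A, and 10 higher and 18 lower in 4A over 3A. At an FDR under 1e-10 the higher genes fell to 18 in 3A over 1A and 5 in 4A over 2A. The balance of higher minus lower genes turned at the 4-fold limit for abscisic acid synthesis, to 1 in 2A over 1A and -1 in 3A over 2A, and for bZIP factors, to -1 in 3A over 2A and 1 in 4A over 3A. Fewer genes remain at such limits by construction. Motif counts of the members were the same in the shorter window. Over all 38312 reference genes, the share listed was 8.76% to 19.5% per table. The planned pseudocounts and filters on low values were not run, as they need per-library values.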
